A study of Mus musculus with 6 samples.

Results

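The pre-B cell receptor (pre-BCR) and the kinases and adaptor that act directly below it were examined in large pre-B cells at their early stage (early LPre-B) from *Upf1*-cKO and control (Ctrl) mice. The rule took 9 genes by symbol, and each had 1 row among the 13426 genes of the table: the surrogate light chain genes *Igll1*, *Vpreb1*, *Vpreb2* and *Vpreb3*, the signalling subunits *Cd79a* and *Cd79b*, and *Blnk*, *Syk* and *Btk*. Ctrl mice were *Upf1* Flox/Flox with the wild-type *Mb1* (*Cd79a*) locus on both chromosomes, and *Upf1*-cKO mice were *Upf1* Flox/Flox with *Mb1* Cre/+, so every mouse carried the floxed *Upf1* alleles and only the knockouts carried Cre. The loxP sites flank exons 4 to 6 of *Upf1*, the gene of an RNA helicase required for nonsense-mediated mRNA decay. Mice were on a C57BL/6 background and 8 to 16 weeks old. There were 3 libraries per group, each with 9732498 to 11006834 recovered reads. The methods describe replicates as independent biological ones, and the labels do not say which mice or how many each library came from.

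Cre sits in 1 copy of *Cd79a* itself. In the Mb1-Cre line the Cre cassette takes the place of part of the *Cd79a* coding sequence, and no Cre-carrying mice with intact *Upf1* were among the samples. The effect of the knock-in and that of *Upf1* loss therefore cannot be told apart, for *Cd79a* or for any other gene given here.

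The pre-BCR is made when a newly rearranged immunoglobulin μ heavy chain pairs with the surrogate light chain, in which the products of *Igll1* (λ5) and of *Vpreb1* or *Vpreb2* stand in for the variable and constant parts of a light chain. The complex is held at the membrane by CD79A and CD79B, each of which has an immunoreceptor tyrosine-based activation motif (ITAM) in its tail. Src-family kinases phosphorylate the ITAM tyrosines, SYK docks there, and SYK and BTK act through the adaptor BLNK on phospholipase C gamma. This signal is the checkpoint at which pre-B cells proliferate and then shut off surrogate light chain transcription.

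The ITAM-coding stretches of the signalling subunits are shown because one of these partner chains was lower in *Upf1*-cKO libraries and the other was not called. Both are read on the coding strand in GRCm38, with the tyrosine codons in capitals. That of *Cd79a* covers coding bases 529 to 603 of the GENCODE M21 transcript Cd79a-201, within chr7:24901281-24901484, and that of *Cd79b* covers coding bases 568 to 642 of Cd79b-202, within chr11:106311852-106312027. Each genomic span holds an intron.
Cd79a: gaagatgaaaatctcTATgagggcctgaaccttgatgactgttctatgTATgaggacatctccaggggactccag
Cd79b: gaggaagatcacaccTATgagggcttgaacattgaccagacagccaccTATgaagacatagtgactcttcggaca

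*Vpreb1* and *Vpreb2* are near-identical copies, and a coding stretch of each is shown because it limits how reads can be assigned between them. Their coding sequences, of 426 bases without the stop codon, differed at 9 bases and were 97.9% identical. The stretch of 120 bases that holds the most differences contains 6 of them, in capitals. It lies at chr16:16868638-16868757 on the minus strand for *Vpreb1* and at chr16:17980919-17981038 on the plus strand for *Vpreb2*.
Vpreb1: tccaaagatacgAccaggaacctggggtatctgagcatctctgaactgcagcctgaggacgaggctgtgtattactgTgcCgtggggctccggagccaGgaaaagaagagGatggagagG
Vpreb2: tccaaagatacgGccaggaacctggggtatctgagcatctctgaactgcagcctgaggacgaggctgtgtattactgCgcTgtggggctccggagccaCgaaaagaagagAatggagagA
Of the windows of 50 bases in the *Vpreb2* transcript, 32.8% were also found in a *Vpreb1* transcript, and at 75 bases the share was 19.9%. A read from such a window cannot be placed on 1 gene by its sequence. How multiply mapped reads were counted is not given in the sources used here, so the levels of both genes are uncertain in absolute terms.

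In the deposited table the levels are normalised reads, that is reads per gene scaled to an effective library size of 1000000. Of the 9 members, 3 were higher in *Upf1*-cKO libraries (*Vpreb1*, *Vpreb2* and *Blnk*), 3 were lower (*Vpreb3*, *Cd79a* and *Syk*) and 3 did not pass the test (*Igll1*, *Cd79b* and *Btk*). A gene passed when its Benjamini-Hochberg adjusted p over all 13426 genes was below 0.05 with limma on log2(value + 1). By this test 52.7% of all genes were called, 27.7% as higher and 25.0% as lower. The share of members called, 66.7%, is to be read against that background. The 3 higher and 3 lower members were called in every fit that left out 1 library. The values did not overlap between the groups for 6 of 9 members, against 58.8% of all genes.

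**Figure D1:**
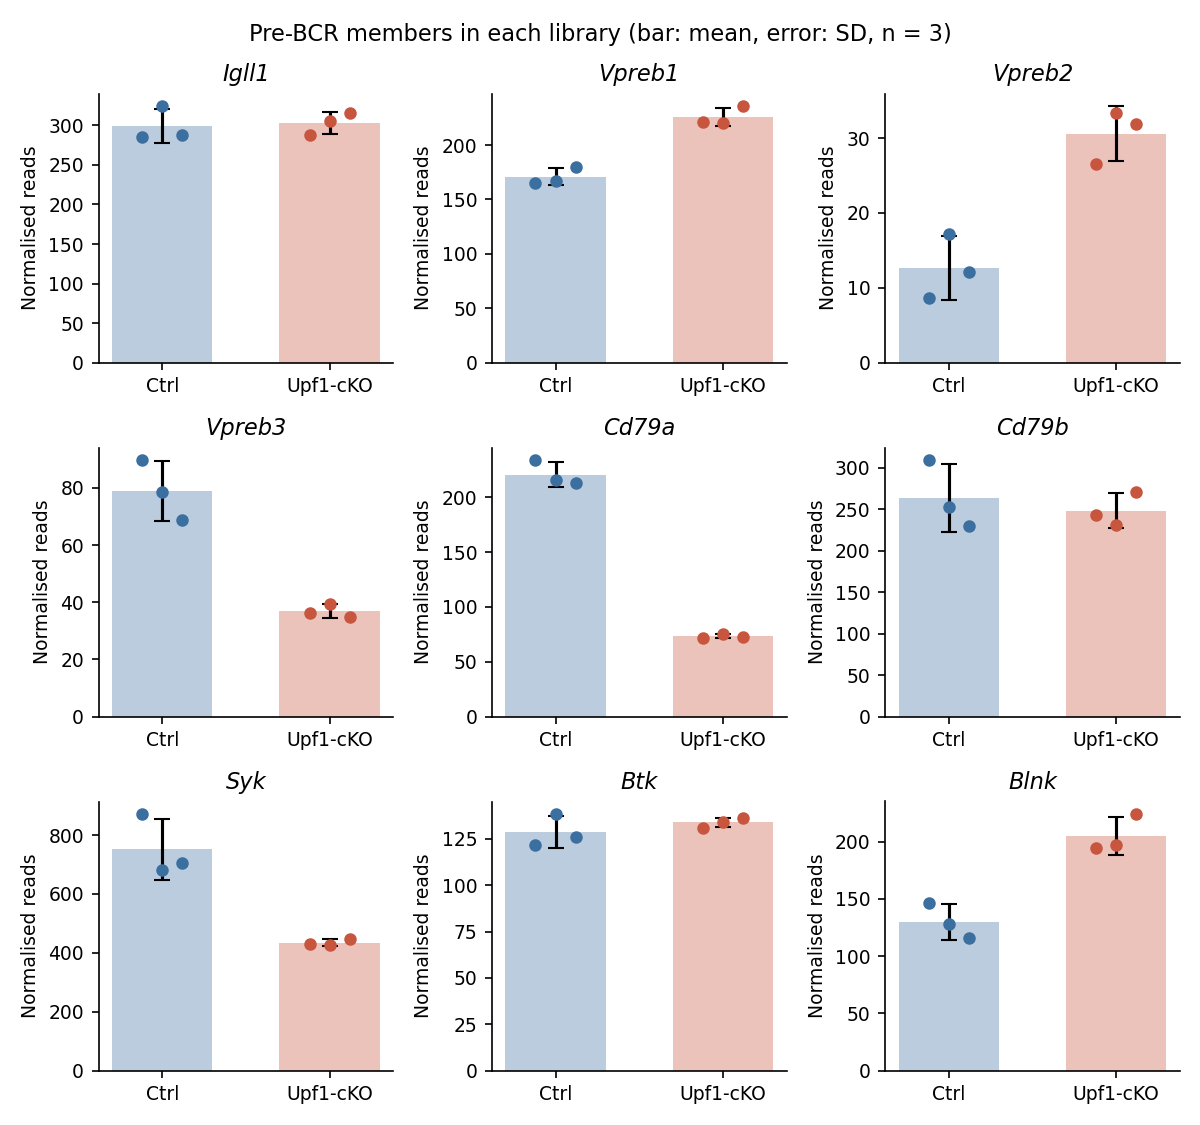
Normalised reads of the 9 members in each library, with Ctrl in blue and Upf1-cKO in red. Points are the 3 libraries of a group in replicate order, bars are means, error bars are SD, and each vertical axis starts at 0. Cd79a, Vpreb3 and Syk are lower and Vpreb1, Vpreb2 and Blnk are higher in all 3 Upf1-cKO libraries, whereas the groups overlap for Igll1, Cd79b and Btk.

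The surrogate light chain genes did not move together. *Igll1* (chromosome 16, 16860671 to 16863985, GRCm38), which encodes λ5, had normalised reads of 285, 324 and 288 in Ctrl libraries 1, 2 and 3 and 288, 305 and 315 in *Upf1*-cKO libraries 1, 2 and 3. The groups overlapped, and the log2 fold change was 0.02 (SE 0.076, 95% CI -0.14 to 0.18, limma adjusted p 0.847). *Vpreb1* (chromosome 16, 16868401 to 16869255), which encodes the variable-like chain, had 165, 167 and 179.9 normalised reads in Ctrl libraries and 221, 220.2 and 236 in *Upf1*-cKO libraries. All *Upf1*-cKO values were above all Ctrl values, with a log2 fold change of 0.40 (SE 0.074, limma adjusted p 0.000177). The exons annotated for *Vpreb1* overlap those of *Top3b*, and since reads were aligned without use of strand and the strand setting of the counting is not given in the sources used here, the value is uncertain there.

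*Vpreb2* (chromosome 16, 17979445 to 17981274) had the fewest reads of the members, with 8.66, 17.1 and 12.1 normalised reads in Ctrl libraries and 26.5, 33.4 and 31.9 in *Upf1*-cKO libraries, from 81 to 378 reads per library. Every *Upf1*-cKO library was above every Ctrl library, and the Ctrl values themselves were spread widely, with library 2 the highest. The log2 fold change was 1.26 (SE 0.19, limma adjusted p 7.04e-05), the largest rise among the members. Given the windows it shares with *Vpreb1*, whether reads were exchanged between both rows was not tested.

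*Vpreb3* (chromosome 10, 75943024 to 75949657) encodes a VpreB-like protein that is associated with newly made μ chains inside the cell and is not a part of the surface surrogate light chain. It had 89.6, 78.7 and 68.7 normalised reads in Ctrl libraries and 36.2, 39.5 and 34.9 in *Upf1*-cKO libraries. The highest *Upf1*-cKO value was well under the lowest Ctrl value. The log2 fold change was -1.07 (SE 0.10, limma adjusted p 8.75e-08), so *Vpreb3* moved in the opposite direction to *Vpreb1* and *Vpreb2*.

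*Cd79a* (chromosome 7, 24897497 to 24901858), encoding Igα, changed most of the 9. It had 234, 215 and 213 normalised reads in Ctrl libraries and 71.6, 75.2 and 73.0 in *Upf1*-cKO libraries. The *Upf1*-cKO libraries lay close to each other and far below every Ctrl library. In bulk RNA, fewer cells that express a gene and less RNA of it per cell cannot be told apart. The log2 fold change was -1.58 (SE 0.077, 95% CI -1.74 to -1.41, limma adjusted p 1.24e-11). The row sums reads over the gene, so transcripts from the copy that carries Cre and from the intact copy were not resolved.

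*Cd79b* (chromosome 11, 106311341 to 106314562), encoding the partner chain Igβ, had 309, 252 and 229 normalised reads in Ctrl libraries and 242, 231 and 271 in *Upf1*-cKO libraries. The groups overlapped, with Ctrl library 1 the highest of the 6. The log2 fold change was -0.08 (SE 0.097, 95% CI -0.28 to 0.13, limma adjusted p 0.521). Both ends of this interval lie far from the change of *Cd79a*.

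The kinases and the adaptor also split. SYK is the tyrosine kinase that binds phosphorylated ITAMs. *Syk* (chromosome 13, 52582610 to 52648792) had 871, 681 and 705 normalised reads in Ctrl libraries and 429, 427 and 448 in *Upf1*-cKO libraries. Ctrl library 1 was the highest, and all Ctrl values were above all *Upf1*-cKO values. The log2 fold change was -0.78 (SE 0.084, limma adjusted p 3.52e-07), and it was -0.67 when Ctrl library 1 was left out.

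*Btk* (chromosome X, 134542334 to 134583628), encoding the Tec-family kinase that phosphorylates phospholipase C gamma, had 122, 138 and 126 normalised reads in Ctrl libraries and 131.0, 134 and 136 in *Upf1*-cKO libraries. All *Upf1*-cKO values fell within the Ctrl range, and the log2 fold change was 0.06 (SE 0.078, 95% CI -0.10 to 0.22, limma adjusted p 0.548). *Blnk* (chromosome 19, 40928927 to 40994221), encoding the adaptor SLP-65 that brings BTK and phospholipase C gamma together, had 146, 128 and 115 in Ctrl libraries and 194, 197 and 224 in *Upf1*-cKO libraries. The groups did not overlap, and the log2 fold change was 0.66 (SE 0.090, limma adjusted p 7.39e-06).

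The result for *Igll1* and *Btk* depended on the scaling. Scaling to total reads in place of the effective library size moved the median over all genes from 0.01 to 0.19 (log2), and *Igll1* (0.22, limma adjusted p 0.0266) and *Btk* (0.26, limma adjusted p 0.0123) were also called higher. With median centring both were slightly negative (-0.089 and -0.049) and neither was called.

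**Figure D2:**
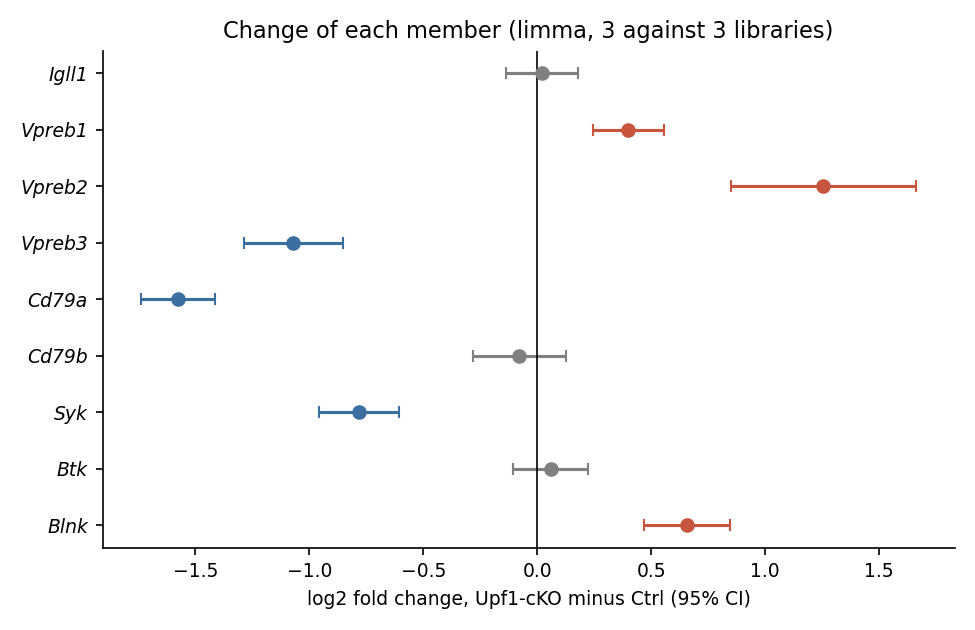
The log2 fold change of each member, Upf1-cKO minus Ctrl, from limma on log2(value + 1), with 95% confidence intervals (3 libraries per group). Red marks members called higher, blue members called lower and grey members not called. The interval of Cd79a (-1.74 to -1.41) lies farthest from 0, and those of Igll1, Cd79b and Btk span 0.

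Ratios of members within 1 library do not depend on how libraries are scaled, and 7 were compared. The test was a two-sided exact permutation of the group labels, which can be assigned in 20 ways, so that with 3 against 3 its smallest p is 0.1. All 7 ratios did not overlap between the groups, and all had the exact p of 0.1, which is also the adjusted p over the 7, so none can pass 0.05 in this design. *Cd79a* relative to *Cd79b* was 0.757, 0.855 and 0.927 in Ctrl libraries and 0.295, 0.326 and 0.269 in *Upf1*-cKO libraries. The difference of the mean log2 ratios was -1.51.

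*Igll1* relative to *Vpreb1* was 1.73, 1.94 and 1.60 in Ctrl libraries and 1.30, 1.39 and 1.34 in *Upf1*-cKO libraries, a log2 difference of -0.38. *Vpreb1* relative to *Vpreb2* was 19.1, 9.76 and 14.9 in Ctrl libraries and 8.35, 6.59 and 7.38 in *Upf1*-cKO libraries, a log2 difference of -0.92. The near-identical pair thus came closer to each other in reads in the *Upf1*-cKO libraries, and Ctrl library 2 was the Ctrl library nearest to them.

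*Ighm*, which encodes the constant region of the μ heavy chain that pairs with the surrogate light chain, had 1648, 1526 and 1356 normalised reads in Ctrl libraries and 1216, 1152 and 1207 in *Upf1*-cKO libraries. The sum of *Igll1*, *Vpreb1* and *Vpreb2* relative to *Ighm* was 0.279, 0.333 and 0.354 in Ctrl libraries and 0.440, 0.485 and 0.483 in *Upf1*-cKO libraries, a log2 difference of 0.55. *Cd79a* relative to *Ighm* was 0.142, 0.141 and 0.157 in Ctrl libraries and 0.0589, 0.0653 and 0.0605 in *Upf1*-cKO libraries, a log2 difference of -1.25. Relative to *Ighm* reads, surrogate light chain reads were thus more abundant and *Cd79a* reads less abundant in all 3 *Upf1*-cKO libraries. The *Ighm* row sums reads over the constant region gene, so transcripts of rearranged and of unrearranged heavy chain genes were not resolved. These ratios are therefore not ratios to the μ chain message that can form a pre-BCR.

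Among the signalling genes, *Syk* relative to *Btk* was 7.16, 4.93 and 5.60 in Ctrl libraries and 3.28, 3.18 and 3.29 in *Upf1*-cKO libraries, a log2 difference of -0.84. *Blnk* relative to *Btk* was 1.20, 0.928 and 0.918 in Ctrl libraries and 1.48, 1.47 and 1.64 in *Upf1*-cKO libraries, a log2 difference of 0.60. These are reads and not molecules, since the genes differ in length.

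**Figure D3:**
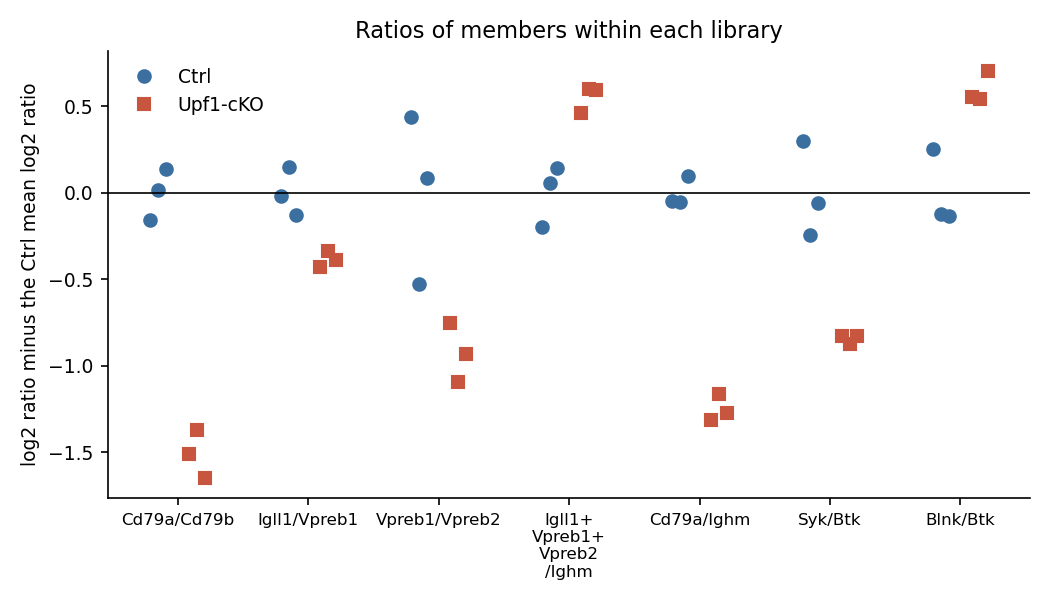
Log2 ratio of 2 members, or of a sum of members and Ighm, within each library, after subtracting the mean log2 ratio of the Ctrl libraries (vertical axis). Circles are the 3 Ctrl and squares the 3 Upf1-cKO libraries. In each of the 7 ratios the groups do not overlap, with the widest distance for Cd79a/Cd79b (a mean difference of -1.51).

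Levels were compared between genes as normalised reads per kilobase of merged exons. In Ctrl libraries the order was *Cd79b* (184 ± 28.5), *Cd79a* (151 ± 7.85), *Vpreb1* (142 ± 6.61), *Igll1* (138 ± 10.02), *Vpreb3* (91.9 ± 12.2), *Syk* (80.3 ± 11.04), *Btk* (40.8 ± 2.74), *Blnk* (21.7 ± 2.59) and *Vpreb2* (16.6 ± 5.61; SD, n = 3). The ranges of neighbours overlapped from *Cd79b* down to *Igll1*, between *Vpreb3* and *Syk*, and between *Blnk* and *Vpreb2*. The range of *Cd79b* lay above those of *Vpreb1* and *Igll1*. Per kilobase of the longest transcript, *Vpreb1* was at 221 and *Syk* at 140.2, which moved *Vpreb1* to the top and *Syk* above *Igll1*.

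In *Upf1*-cKO libraries *Vpreb1* (188 ± 7.18) and *Cd79b* (173 ± 14.5) were highest, with overlapping ranges, followed by *Igll1* (139.9 ± 6.42). *Cd79a* (50.3 ± 1.27) came next and its range touched neither neighbour's. *Syk* (46.4 ± 1.22), *Vpreb3* (42.9 ± 2.80), *Btk* (42.5 ± 0.829), *Vpreb2* (40.3 ± 4.79) and *Blnk* (34.2 ± 2.74) followed, and each overlapped the next in range. Per kilobase of the longest transcript, *Syk* (81.0), *Btk* (52.7) and *Vpreb3* (50.6) stood above *Cd79a* (50.3) in *Upf1*-cKO libraries.

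The 3 other genes whose values over the 6 libraries lay nearest to those of *Cd79a* were *Slamf7*, *Bach2* and *Sbk1*, among genes with a mean log2 value of at least 5. The measure was the Euclidean distance between deviations from the Ctrl mean on the log2 scale, which was 0.104, 0.165 and 0.169. *Slamf7*, which encodes a receptor of the SLAM family, had 235, 222 and 204 normalised reads in Ctrl libraries and 68.0, 74.6 and 74.1 in *Upf1*-cKO libraries.

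*Igll1* and *Vpreb1* are neighbours on chromosome 16, both on the minus strand and 4415 bases apart, and *Vpreb2* lies a further 1110189 bases away on the plus strand. Stretches upstream of a start site of each are shown because *Vpreb1* and *Vpreb2* rose and *Igll1* was not called. For *Igll1* this is the 250 bases at chr16:16863986-16864235, minus strand, from RefSeq on GRCm38.p6. For *Vpreb1* it is the 106 bases next to the start site, chr16:16869256-16869361 on the minus strand, and for *Vpreb2* the matching bases, chr16:17980315-17980420 on the plus strand. Capitals mark CCCNNGGG and CAGGTG on either strand.
Igll1: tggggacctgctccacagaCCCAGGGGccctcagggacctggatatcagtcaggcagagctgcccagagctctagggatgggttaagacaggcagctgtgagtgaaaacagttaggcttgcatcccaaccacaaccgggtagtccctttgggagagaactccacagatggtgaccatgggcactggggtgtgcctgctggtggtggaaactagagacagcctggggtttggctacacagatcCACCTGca
Vpreb1: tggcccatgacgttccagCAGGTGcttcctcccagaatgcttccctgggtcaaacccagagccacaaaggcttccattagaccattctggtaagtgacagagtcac
Vpreb2: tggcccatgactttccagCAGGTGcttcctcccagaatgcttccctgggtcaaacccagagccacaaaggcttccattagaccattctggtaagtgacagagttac
The upstream stretches of *Vpreb1* and *Vpreb2* were the same at 104 of 106 bases (98.1%). The *Vpreb2* bases lie before the start of its GENCODE M21 transcript. They lie inside the wider RefSeq span of the gene given above and inside the window before the RefSeq start in the promoter table, so which start the cells used was not resolved.

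Of the 9 members, 8 had a RefSeq promoter window, all but *Cd79b*, and *Syk* had more than 1 window. The 250 bases before each start were searched on both strands for CCCNNGGG, the core recognised by the early B cell factor EBF1, for CAGGTG, an E-box bound by the E2A proteins, and for TGGGAA, a core recognised by the Ikaros family. CAGGTG was present for 6 of the 8 genes (*Igll1*, *Vpreb1*, *Vpreb2*, *Cd79a*, *Syk* and *Blnk*). Counted by window, it was present in 7 of the 9 windows of members and in 17.2% of 32851 windows of all genes. The matches of *Vpreb1* and *Vpreb2* lie in the upstream stretch that both share, so they are not independent. Genes with CAGGTG included members that rose, fell and were not called. CCCNNGGG was present for *Igll1* alone and in 11.8% of all windows, and TGGGAA for *Vpreb2* and *Btk* and in 21.6%.

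Genes of the factors that recognise these letters were looked up after their values had been seen. *Ebf1* had a log2 fold change of 0.03 (SE 0.086, limma adjusted p 0.772). *Tcf3*, which encodes the E2A proteins, was lower by a log2 fold change of -0.39 (SE 0.080, limma adjusted p 0.000406). *Ikzf1*, the gene of Ikaros, was lower by -1.28 (SE 0.066, limma adjusted p 2.66e-11).

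The other genes of the pathway were taken from 8 lists by role, of which 114 genes had a row. Of these, 25 were higher (21.9%, against 27.7% of all genes), 56 were lower (49.1%, against 25.0%) and 33 were not called. Their median log2 fold change was -0.19, against 0.01 over all genes. This balance depended on the scaling: 36 were higher and 35 lower when libraries were scaled to total reads, and 20 were higher and 64 lower with median centring. Genes named below only to complete a count were chosen after their values were seen.

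Of the heavy and light chain constant genes, *Ighm* and *Igkc* had a row and both were lower. *Ighm* had a log2 fold change of -0.34 (SE 0.074, limma adjusted p 0.000888), which was 0.0031 after quantile normalization and -0.13 (limma adjusted p 0.161) with scaling to total reads. *Igkc*, the κ light chain constant gene, had 43.6, 42.0 and 38.1 normalised reads in Ctrl libraries and 21.6, 19.5 and 22.2 in *Upf1*-cKO libraries. All its *Upf1*-cKO values were below Ctrl, with a log2 fold change of -0.93 (SE 0.11, limma adjusted p 9.72e-07).

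Above SYK, the list of Src-family kinases and coreceptor genes had 6 of 11 genes higher and 5 lower. The lower ones were *Blk*, *Lyn*, *Csk*, *Cd81* and *Ptprc*. BLK and LYN are the Src-family kinases most used by B lineage cells to phosphorylate ITAMs. *Blk* had 232, 213 and 204 normalised reads in Ctrl libraries and 36.3, 43.9 and 45.7 in *Upf1*-cKO libraries, and *Lyn* had 180.1, 157 and 163 against 75.2, 77.9 and 79.2. Neither gene's groups overlapped, and the log2 fold changes were -2.34 (SE 0.094, limma adjusted p 7.93e-13) and -1.09 (SE 0.081, limma adjusted p 2.87e-09).

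Paralogs of *Syk*, *Btk* and *Blnk* were called in both directions. Of the 4 with a row, *Zap70*, *Tec* and *Lcp2* were lower and *Bmx* was higher, and the other genes of this list had no row in the table used here. The groups overlapped for *Lcp2*, and 2 genes were lower in place of 3 without trend, with scaling to total reads, or without Ctrl library 1 or 2 or *Upf1*-cKO library 2 or 3, whereas *Zap70* and *Tec* were lower in all alternatives. *Zap70*, the paralog of *Syk*, had 24.9, 28.4 and 26.7 normalised reads in Ctrl libraries and 10.1, 7.53 and 7.46 in *Upf1*-cKO libraries, a log2 fold change of -1.57 (SE 0.14, limma adjusted p 4.66e-08). *Tec*, a paralog of *Btk*, changed by -0.82 (SE 0.12, limma adjusted p 1.36e-05). *Bmx* rose by 1.04 (SE 0.21, limma adjusted p 0.000487) but stayed at or below 1.61 normalised reads.

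Downstream, the adaptors and phospholipase C genes had 5 of 23 higher, 11 lower and 7 not called, and 8 higher and 6 lower with scaling to total reads. The higher ones were *Plcg1*, *Vav2*, *Bank1*, *Dapp1* and *Gab1*. *Plcg2*, the phospholipase C gamma gene that BLNK and BTK serve in B cells, had 356, 369.9 and 348 normalised reads in Ctrl libraries and 354, 357 and 346 in *Upf1*-cKO libraries. Its groups overlapped and its log2 fold change was -0.02 (SE 0.069, limma adjusted p 0.799), whereas with scaling to total reads it was called higher (0.18, limma adjusted p 0.0489). *Plcg1*, the form better known from T cells, had 77.7, 62.7 and 57.7 in Ctrl libraries and 362, 325 and 355 in *Upf1*-cKO libraries. It rose by 2.39 on the log2 scale (SE 0.096, limma adjusted p 9.94e-13). *Dok3*, an inhibitory adaptor, was lower by -1.10 (SE 0.095, limma adjusted p 2.19e-08), and *Vav3*, a guanine nucleotide exchange factor, by -0.84 (SE 0.089, limma adjusted p 2.93e-07).

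In the PI3K branch 5 of 14 genes were higher (*Pik3cd*, *Pik3cb*, *Inpp5d*, *Foxo1* and *Foxo3*), 4 were lower (*Akt1*, *Akt2*, *Pik3cg* and *Pik3r1*) and 5 were not called, and with median centring 7 were lower. *Akt1* and *Akt2*, which encode the kinases that read out PI3K activity, had log2 fold changes of -0.76 (SE 0.076) and -0.50 (SE 0.098), with limma adjusted p of 1.39e-07 and 0.000315. *Pik3cb* was higher by 0.71 (SE 0.20, limma adjusted p 0.00694) at no more than 4.44 normalised reads.

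The calcium, PKC and MAPK branch had 2 of 27 genes higher (*Itpr1* and *Itpr3*), 14 lower and 11 not called, with a median of -0.24. With scaling to total reads the list had 6 genes higher and 6 lower, and with median centring 1 higher and 18 lower. *Rasgrp1*, an activator of RAS, had 40.1, 30.7 and 22.5 normalised reads in Ctrl libraries and 1.61, 1.94 and 0.801 in *Upf1*-cKO libraries, a log2 fold change of -3.70 (SE 0.22, limma adjusted p 2.19e-10). *Rasgrp3*, its relative, changed by -0.68 (SE 0.20, limma adjusted p 0.00815), and by -0.51 (limma adjusted p 0.0535) without Ctrl library 1.

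Among inhibitory receptors and phosphatases, 4 of 13 were higher (*Lair1*, *Pirb*, *Ptpn22* and *Inpp5b*), 5 were lower (*Cd22*, *Cd72*, *Ptpn6*, *Fcgr2b* and *Siglecg*) and 4 were not called. CD22 and CD72 recruit the phosphatase SHP-1, the product of *Ptpn6*, to dampen antigen receptor signals. Their log2 fold changes were -2.84 (SE 0.12) for *Cd22*, -2.29 (SE 0.11) for *Cd72* and -1.57 (SE 0.091) for *Ptpn6*, with limma adjusted p of 2.45e-11, 1.31e-10 and 1.14e-10.

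Of the transcription factors that act on pre-BCR component genes or in the response to it, 2 of 20 were higher (*Tcf4* and *Lef1*), 12 were lower and 6 were not called, with a median of -0.32. The calls as higher were not stable: there were 0 without trend, with median centring or without *Upf1*-cKO library 2, 1 without *Upf1*-cKO library 1 and 4 with scaling to total reads, which also gave 8 lower. *Ikzf3* (Aiolos), which takes part in silencing *Igll1* after pre-BCR signalling, had 323, 297 and 334 normalised reads in Ctrl libraries and 31.3, 37.0 and 34.9 in *Upf1*-cKO libraries, a log2 fold change of -3.17 (SE 0.086, limma adjusted p 3.07e-15). *Irf4*, which acts with Aiolos at this step, changed by -1.94 (SE 0.076, limma adjusted p 5.97e-13). *Bach2* changed by -1.56 (SE 0.080, limma adjusted p 2.45e-11).

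**Figure D4:**
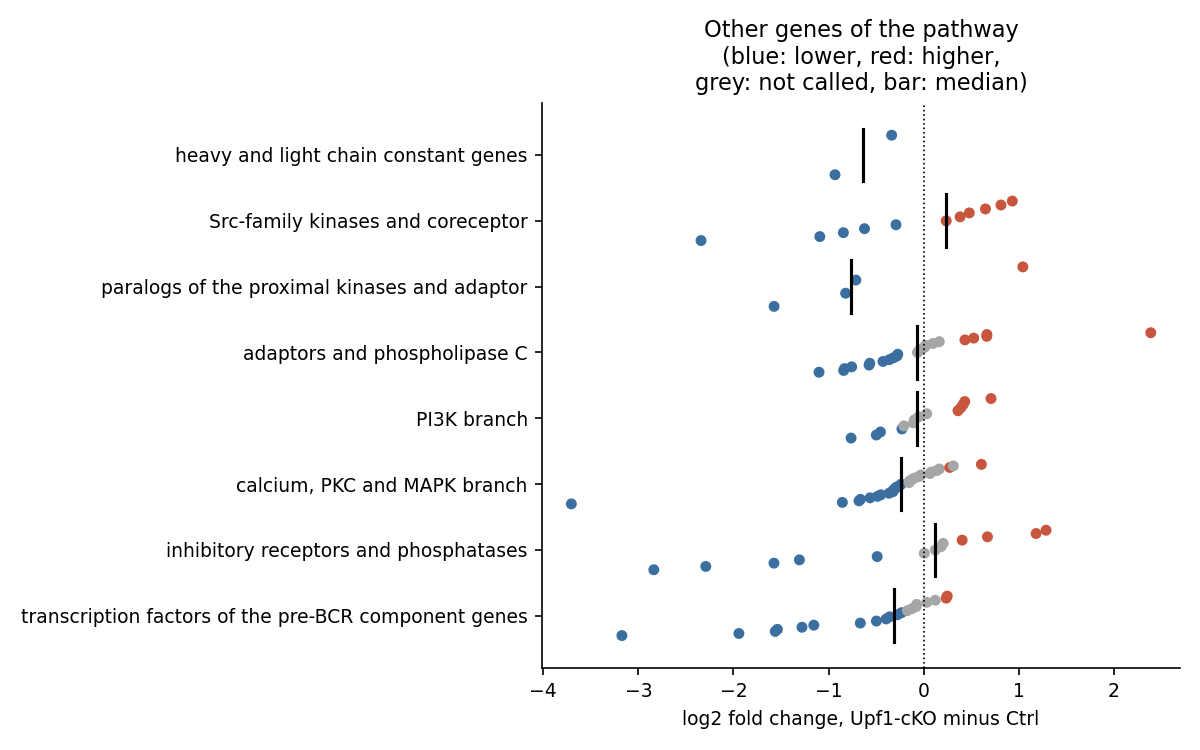
Log2 fold change (Upf1-cKO minus Ctrl, horizontal axis) of the 114 other genes of the pathway, grouped in 8 lists by role. Each point is a gene, blue if called lower, red if called higher and grey if not called, and the black bar is the median of the list. Called genes lie on both sides of 0 in all lists but that of the constant genes, and the balance within a list depends on the scaling (the calcium, PKC and MAPK branch has 2 higher and 14 lower genes here, and 6 and 6 with scaling to total reads).

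The sorted cells were checked against other cell types, since *Syk*, *Btk*, *Blnk* and *Lyn* are also expressed outside the B lineage. *Il7r*, the interleukin-7 receptor gene of early B lineage cells, had 362, 299 and 366 normalised reads in Ctrl libraries and 225, 215 and 231 in *Upf1*-cKO libraries (log2 fold change -0.61, SE 0.083, limma adjusted p 6.53e-06), and *Cd2*, used in the sort as a negative marker, was at no more than 4.09 and lower in *Upf1*-cKO libraries (log2 fold change -1.21, SE 0.24, limma adjusted p 0.000362). Other stage markers, named after their values were seen, also differed. *Kit*, a receptor of earlier progenitors, had 10.4, 9.04 and 6.70 normalised reads in Ctrl libraries and 37.0, 41.2 and 39.2 in *Upf1*-cKO libraries. *Il2ra* (CD25), which marks later pre-B cells, had 13.4, 14.2 and 12.4 against 1.61, 1.76 and 1.64. Of the 7 surface markers of the sort, 2 were called higher and 4 lower. The part of such a difference in stage in the values of the members was not tested. The T and NK cell markers had 4 of 12 genes with a row, without *Cd3e*, *Cd3d* and *Cd3g*, and summed to 3.40 to 5.46 normalised reads in Ctrl libraries and 5.48 to 7.81 in *Upf1*-cKO libraries. Of these 4, *Klrb1c* was higher and *Cd5* was at no more than 2.93 normalised reads.

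Myeloid markers had 11 of 12 genes with a row, of which 5 were higher (*Lyz2*, *Elane*, *S100a8*, *S100a9* and *Ltf*) and 1 was lower. The lower one was *Itgam* (log2 fold change -0.42, SE 0.14, limma adjusted p 0.0199), and *Mpo*, *Csf1r*, *Adgre1*, *Ngp* and *Camp* were not called. They summed to 70.2 to 187 normalised reads in Ctrl libraries, with Ctrl library 1 the highest, and to 396 to 545 in *Upf1*-cKO libraries, where *S100a8*, *S100a9*, *Ngp*, *Ltf*, *Camp* and *Lyz2* made up most of the sum. *Ngp*, a neutrophil granule gene, had 44.9, 2.68 and 2.23 normalised reads in Ctrl libraries and 148, 128 and 95.7 in *Upf1*-cKO libraries (limma adjusted p 0.0572), and *Ltf* had 28.0, 1.77 and 1.84 against 116, 82.7 and 86.1. The part of these transcripts in the values of *Syk*, *Btk* and *Blnk* was not tested. Erythroid and platelet markers had 3 of 9 genes with a row, led by *Alas2*, and summed to 6.82 to 11.8 normalised reads in Ctrl libraries and 8.39 to 9.42 in *Upf1*-cKO libraries. Mature B and plasma cell markers, led by *Xbp1* and *Sdc1*, summed to 96.1 to 118 normalised reads in Ctrl libraries and 91.8 to 105 in *Upf1*-cKO libraries, but of the 9 genes 3 were higher (*Cr2*, *Ighd* and *Cd40*) and 2 were lower (*Sdc1* and *Jchain*). *Sdc1*, a plasma cell marker also found on early B lineage cells, had 28.4, 35.5 and 26.4 normalised reads in Ctrl libraries and 16.8, 16.4 and 13.4 in *Upf1*-cKO libraries.

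The row of the targeted gene gave no lower level for the knockout label. *Upf1* had 260.0, 203 and 259 normalised reads in Ctrl libraries and 308, 283 and 299.7 in the libraries labelled *Upf1*-cKO, a log2 fold change of 0.31 (SE 0.089, limma adjusted p 0.00696). The row sums reads over the gene and does not resolve the floxed exons. Every direction above is therefore that of the libraries labelled *Upf1*-cKO against those labelled Ctrl.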

How the data were processed

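RNA-seq was performed on early LPre-B cells sorted from bone marrow gated as large (FSC hi) B220+ CD43+ cells without lineage markers, surface IgM or CD2, with 3 Ctrl and 3 *Upf1*-cKO libraries grouped by label. According to the methods and the submitters' processing notes, rRNA was depleted, single-end reads were trimmed with cutadapt 4.0, aligned to mm10 (GRCm38) with HISAT2 without use of strand, counted with featureCounts 2.0.1 and analysed with limma 3.48.0. The authors deposited a linear signal per Entrez gene, equal to reads plus 0.5 per 1000000 of an effective library size, here called normalised reads. Whole reads were recovered for 100% of values (tolerance 0.1 read). Without molecular identifiers, reads may be PCR copies of one another. Symbols and coordinates came from RefSeq GRCm38.p6 (13008 of 13426 IDs), exon lengths from GENCODE M21.

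Members and gene lists were chosen with earlier results of these data known. limma 3.58.1 in R 4.3.3 (trend and robust) was run on log2(value + 1) over all genes with Benjamini-Hochberg adjustment, after a test on simulated data. Fold changes on this scale understate those of low genes. Named were all members, *Upf1*, *Lyn*, *Plcg2*, constant region genes, at most 3 called genes per list by size of change, the top 2 of each marker list by level and the 3 genes nearest in pattern to the member that changed most. A few genes that met this rule are not reported here. No chance test was made on lists. Alternatives were a replicate block, eBayes without trend, voom, edgeR 4.0.16, DESeq2 1.42.0, median centring, quantile normalization, scaling to total reads, a pseudocount of 0.1, a minimum mean log2 value of 1 and leaving out each library. Ratios were also computed from recovered reads and levels with the longest transcript.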

Additional observations from a re-analysis of the deposited data

How the results depend on the processing

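The directions and calls of *Vpreb1*, *Vpreb2*, *Vpreb3*, *Cd79a*, *Syk* and *Blnk* were kept under all 16 alternatives, with ranges of the log2 fold change of 0.29 to 0.60, 1.03 to 1.49, -1.18 to -0.87, -1.68 to -1.37, -0.89 to -0.57 and 0.55 to 0.86. Scaling to total reads, which moved the median of all genes to 0.19, raised the number of members called higher to 5 by adding *Igll1* (0.22) and *Btk* (0.26) and lowered the number of pathway genes called lower to 35 (with 36 higher). The members that were not called changed sign: *Igll1* was -0.089 with median centring and between -0.013 and 0.078 when a library was left out, *Cd79b* was 0.039 with quantile normalization, 0.12 with total reads and between -0.17 and 0.041 when a library was left out, and *Btk* was -0.049 with median centring. *Ighm* was 0.0031 with quantile normalization. *Plcg2* was 0.15 with quantile normalization, 0.18 with total reads (limma adjusted p 0.0489, called) and between -0.042 and 0.00075 when a library was left out. Levels per kilobase of the longest transcript moved most for *Vpreb1* (221 in Ctrl and 292 in *Upf1*-cKO libraries) and *Syk* (140.2 and 81.0). Beyond the scaling itself, the cause of these differences was not tested.

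The labels number the libraries 1 to 3 in each group, and the column headers give libraries with the same number adjacent serial numbers. What the serial numbers stand for is not given in the sources used here. The deviations of libraries with the same number correlated at 0.126, -0.063 and -0.079 across genes, so the numbers were not taken as pairs in the main fit. With the number as a replicate block, 3 members were higher and 3 lower, 25 pathway genes were higher and 56 lower, no call changed among the members and the pathway genes refitted with it, and the ratios kept their values with a smallest possible exact p of 0.25.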

Other observations

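Of the 5 genes with a row in the list of dendritic cell markers, *Flt3*, *Ly6d* and *Ccr9* were higher in the *Upf1*-cKO libraries, whereas *Itgax* (log2 fold change -0.53, limma adjusted p 0.130) and *Siglech* (0.37, limma adjusted p 0.175) were not called. The list, whose sum is mostly *Flt3* and *Ly6d*, had a summed level of 53.9 to 57.9 normalised reads against 9.48 to 14.6 in Ctrl libraries. *Flt3*, a cytokine receptor of early lymphoid progenitors, had 2.39, 1.46 and 2.23 normalised reads in Ctrl libraries and 31.0, 29.6 and 28.9 in *Upf1*-cKO libraries, a log2 fold change of 3.36 (SE 0.17, limma adjusted p 1.85e-11). *Ly6d*, which marks B lineage specified progenitors, had 6.64, 5.91 and 4.02 against 16.7, 19.8 and 24.7 (log2 fold change 1.72, SE 0.18, limma adjusted p 3.06e-07).

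*Xist* was at 2662 to 3266 normalised reads in all 6 libraries, and the Y-linked *Ddx3y*, *Eif2s3y*, *Kdm5d* and *Uty* had no row in the table used here.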
